A study of Mus musculus with 6 samples.

Results

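The interferon-stimulated genes described here are 44 mouse genes that interferons are known to induce. The list was picked by symbol, with earlier results of these data known. All 44 had a row in the table of 15667 genes, and 43 of them reached the mean of 1 read per 1000000 reads (CPM) that was required for a test, as did 14306 genes in all. They were measured by RNA-seq in ear skin at the place where Ixodes scapularis ticks were feeding. Female mice that make adiponectin (WT, Adipo+/+, n = 3) were compared with littermates that lack it (KO, Adipo-/-, n = 3), all of the strain B6;129-Adipoq tm1Chan/J and 7 to 8 weeks old. Each mouse carried 10 ticks, and a punch of the bitten ear was taken after 48 h. The comparison asks whether the loss of this fat cell hormone alters the skin's transcripts during a tick bite. The null allele is carried by every cell of the KO mouse from conception. By its name the stock mixes the B6 and 129 strains, so genes close to the allele, and others, may also differ by strain. Unbitten skin was not analysed here, so no value below says how far these genes were induced by the bite.

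Interferons are secreted proteins that bind receptor pairs on the cell surface. Type I and type III interferons act through the kinases Jak1 and Tyk2 on a complex with Stat2 and Irf9 that binds a DNA element called ISRE, while interferon gamma acts through Jak1 and Jak2 on genes with an element called GAS. In skin, keratinocytes, fibroblasts and leukocytes can all respond, and the induced genes encode RNA sensors, transcription factors, antiviral effectors, GTPases that attack vacuoles of microbes inside cells, and the ISG15 conjugation system.

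The binding elements can be read directly in the promoters of these genes. The RefSeq promoter set (GRCm38.p6, 250 bases before to 50 after each gene start) held 38 windows for 34 of the 44 genes. An ISRE core, searched as GAAANNGAAA on both strands, occurred in 19 of these windows (50%), against 3.44% of all 32851 windows. A GAS, searched as TTCNNNGAA, which reads alike on both strands, occurred in 11 (28.9%), against 8.30% of all windows, and 8 genes had both. Matches may overlap each other, within a motif or between motifs. A match is a description of the letters and not evidence of a bound factor, and the 10 genes with no window (Oas2, Usp18, Gbp4, Gbp6, Iigp1, Dhx58, Zbp1, Parp9, Parp14 and Rtp4) are named only. The stretches below are shown for transcription factor, effector, GTPase and ISG15 genes whose levels are described later. Each is written 5′ to 3′ on the strand of its gene, lies wholly before the gene start, and has each ISRE core or GAS in capitals. On the reverse strand the ISRE core reads TTTCNNTTTC.
Isg15 (chr4:156200860-156200911, minus strand): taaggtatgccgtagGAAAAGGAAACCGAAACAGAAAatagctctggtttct
Ifit1 (chr19:34640770-34640828, plus strand): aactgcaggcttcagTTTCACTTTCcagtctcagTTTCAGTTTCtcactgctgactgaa
Ifit3 (chr19:34583358-34583431, plus strand): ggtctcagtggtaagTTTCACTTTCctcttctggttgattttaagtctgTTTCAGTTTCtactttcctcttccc
Oas3 (chr5:120777710-120777749, minus strand): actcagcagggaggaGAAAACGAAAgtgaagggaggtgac
Rsad2 (chr12:26456548-26456587, minus strand): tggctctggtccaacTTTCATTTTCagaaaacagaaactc
Gbp2 (chr3:142620589-142620628, plus strand): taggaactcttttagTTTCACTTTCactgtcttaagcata
Gbp7 (chr3:142530215-142530307, plus strand): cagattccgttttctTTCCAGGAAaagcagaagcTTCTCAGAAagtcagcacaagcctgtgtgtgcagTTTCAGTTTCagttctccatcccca
Igtp (chr11:58199496-58199546, plus strand): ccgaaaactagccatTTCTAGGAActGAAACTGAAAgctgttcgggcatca
Irgm2 (chr11:58214887-58214937, plus strand): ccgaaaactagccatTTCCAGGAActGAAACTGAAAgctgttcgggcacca
Irgm1 (chr11:48871421-48871465, minus strand): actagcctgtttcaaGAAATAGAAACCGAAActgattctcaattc
Stat2 (chr10:128270261-128270300, plus strand): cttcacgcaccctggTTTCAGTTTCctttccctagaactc
Irf1 (chr11:53769909-53769947, plus strand): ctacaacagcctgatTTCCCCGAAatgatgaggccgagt

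The Isg15 promoter had 3 overlapping ISRE cores in an unbroken run, which began 78 bases and ended 57 bases before the gene start. Ifit1 and Ifit3, in the same cluster on chromosome 19, each had 2 separate cores. Igtp and Irgm2, which encode GTPases of the same family and lie side by side on chromosome 11, had the same arrangement of a GAS followed by an ISRE core, and 49 of the 51 bases printed for them were identical. Gbp7 had 2 GAS and 1 ISRE core. Irf1, which interferon gamma induces, had a GAS and no ISRE core in the window.

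The depth recovered from the lowest values was 4131361 to 6065619 reads in the WT libraries and 3403706 to 6591515 reads in the KO libraries, so that 3 reads corresponded to 0.455 to 0.881 CPM. Intervals and ratios for the low genes below therefore carry large counting error. The targeted gene, Adipoq (chr16:23146536-23157968), was at 30.5, 63.7 and 49.6 CPM in WT replicates 1 to 3, and at 0, 0.560 and 0 CPM in KO replicates 1 to 3, in accord with the labels. Summed keratinocyte markers (11 of 12 in the table) were at 36046 to 54937 CPM and summed cartilage markers (8 of 9) at 193 to 466 CPM in all libraries, which fits ear skin. The libraries differed widely in hair follicle markers. Summed over 20 of 20, these were at 24623 CPM in WT replicate 3 and at 53.3 and 71.2 CPM in WT replicates 1 and 2. The KO libraries lay between, at 1062 to 9765 CPM. Of these markers, 13 were at 0 in WT replicate 1, 7 in WT replicate 2 and 0 in every other library. Fold changes without WT replicate 3 are given at the end of the account of each role. In those fits both remaining WT libraries lay below every KO library on these markers. Genotype and hair follicle level therefore cannot be told apart there.

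No interferon-stimulated gene passed the test between KO and WT. By limma with Benjamini-Hochberg adjustment over all genes tested, 0 of 43 had an adjusted p below 0.05, where 0.0140% of all genes did (2 genes, 1 of them Adipoq). The adjusted p of every member was 0.998. At an unadjusted p below 0.05, 1 of the 43 was lower in KO, where 1.82% of all genes were, and 0 were higher, where 1.06% were. In no member did the KO values all lie below the WT values, where this held for 4.89% of all genes, or all above them, where it held for 2.95%. In KO, 23 of the 43 had the lower fitted level and 20 the higher, and 56.7% of all genes had the lower level. The median log2 fold change (KO minus WT) was -0.05 over the members and -0.03 over all genes. Each fold change is on the scale of log2(CPM + 0.5), which understates changes of low genes. The smallest unadjusted p possible in an exact permutation test of 3 against 3 libraries is 0.1, so single genes were judged by the limma fit alone.

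**Figure D1:**
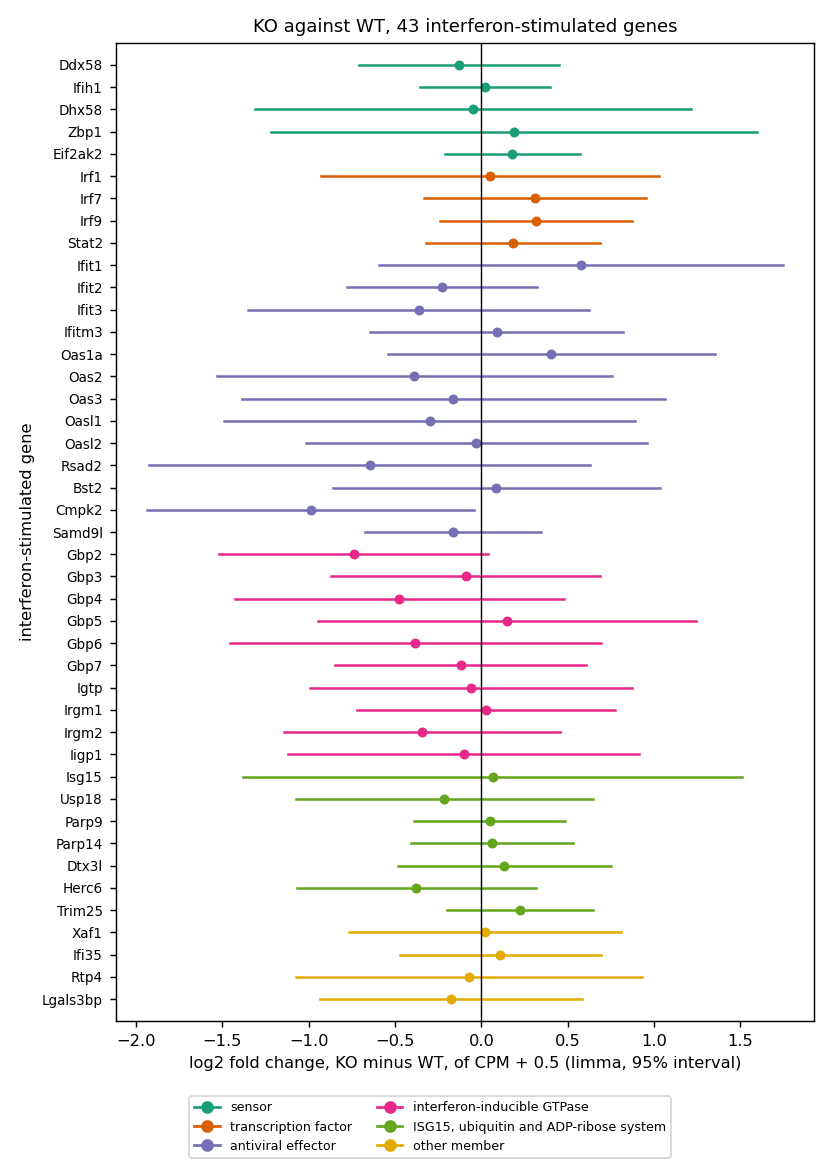
Fitted log2 fold change (KO minus WT, horizontal axis, of CPM + 0.5) of each of the 43 interferon-stimulated genes tested, with its 95% interval from limma, coloured by role. Points lie on both sides of 0, from -0.99 for Cmpk2 to 0.58 for Ifit1, and the interval of Cmpk2 alone does not include 0.

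The transcription factors that carry the interferon signal were the role in which every member had the higher fitted level in KO, but none passed the test. Stat2, a subunit of the ISRE-binding complex, was at 21.0, 24.0 and 15.6 CPM in WT replicates 1 to 3, and at 18.1, 24.9 and 25.9 CPM in KO replicates 1 to 3. The groups overlapped, and the log2 fold change was 0.18 (SE 0.22, 95% interval -0.32 to 0.69). Irf9, the DNA-binding subunit of that complex, was at 24.4, 35.2 and 19.1 CPM in the WT mice and at 25.8, 35.0 and 35.5 CPM in the KO mice. Its WT replicate 2 lay within the range of KO, and the log2 fold change of 0.32 (SE 0.24, interval -0.24 to 0.87) had an unadjusted p of 0.227 and an adjusted p of 0.998 by limma. Irf7, the master regulator of type I interferon genes, was at 8.23, 12.2 and 7.25 CPM in the WT mice and at 12.1, 8.41 and 14.1 CPM in the KO mice, a log2 fold change of 0.31 (SE 0.28, interval -0.33 to 0.96). Irf1, an early target of interferon gamma, was at 22.5, 23.2 and 7.58 CPM in the WT mice and at 17.0, 21.3 and 12.3 CPM in the KO mice. WT replicate 3 had the lowest value of all 4 factors. With that library left out the fold change of Irf1 turned from 0.05 to -0.46, while those of Stat2, Irf9 and Irf7 were 0.01, 0.11 and 0.16.

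The cytoplasmic sensors of foreign nucleic acid had fold changes from -0.13 to 0.19 with all libraries in the fit. Eif2ak2 encodes PKR, a kinase that stops translation when it binds double-stranded RNA. Its level was 28.8, 32.1 and 21.8 CPM in the WT mice and 30.6, 30.3 and 31.7 CPM in the KO mice. The 3 KO libraries agreed closely, within the range of WT, and the log2 fold change was 0.18 (SE 0.17, interval -0.21 to 0.57). Ddx58, which encodes the RNA helicase RIG-I, was at 18.4, 20.3 and 12.9 CPM in the WT mice and at 12.0, 19.9 and 15.3 CPM in the KO mice (-0.13, SE 0.25). Zbp1, a sensor of Z-form nucleic acid that can start necroptosis, was at 6.05, 4.88 and 0.989 CPM in the WT mice and at 5.61, 4.48 and 2.06 CPM in the KO mice. Its lowest value in each group was that of replicate 3, both from under 10 reads (6 and 7), and its fold change of 0.19 had an SE of 0.61. The other sensors were Ifih1 (MDA5), at 28.7 to 39.7 CPM over all libraries, and Dhx58 (LGP2), at 1.48 to 8.34 CPM, with fold changes of 0.02 and -0.05. WT replicate 3 was the lowest library for all sensors but Ddx58. Without it the fold changes were 0.02 (Eif2ak2), -0.32 (Ddx58), -0.48 (Zbp1), -0.08 (Ifih1) and -0.70 (Dhx58), the last with an unadjusted p of 0.065 by limma.

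**Figure D2:**
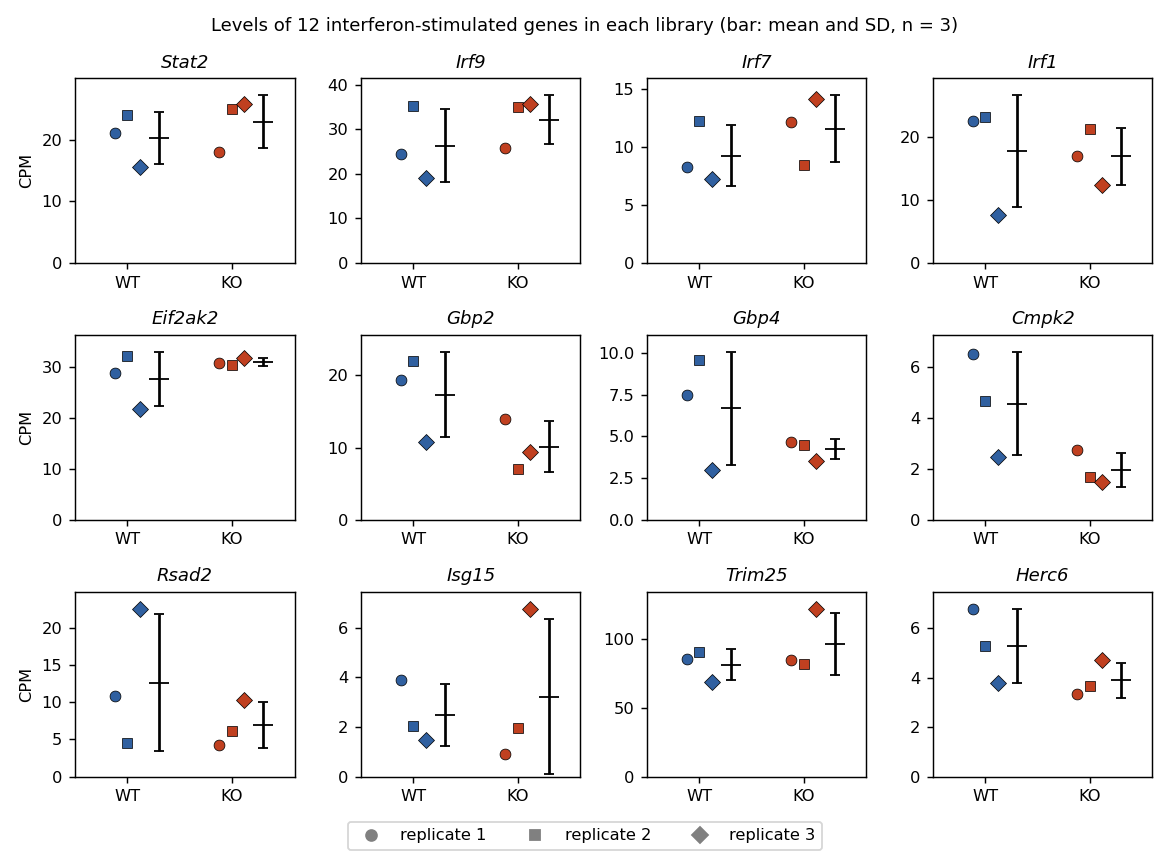
CPM (vertical axes, from 0) of 12 interferon-stimulated genes in each WT and KO library, with the mean and SD of each group (n = 3) as a bar beside the points. WT replicate 3 (blue diamond) is the lowest WT point in each gene shown except Rsad2, where it is the highest at 22.6 CPM, and the groups overlap in all 12.

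The antiviral effectors included the gene with the smallest p. Cmpk2, a mitochondrial nucleotide kinase, was at 6.54, 4.68 and 2.47 CPM in the WT mice and at 2.73, 1.68 and 1.47 CPM in the KO mice. WT replicate 3 lay below KO replicate 1, so the groups overlapped. The log2 fold change was -0.99 (SE 0.41, interval -1.93 to -0.04), with an unadjusted p of 0.043 and an adjusted p of 0.998 by limma. These levels rest on 5 to 27 reads per library, and the unadjusted p rose above 0.05 when any of WT replicates 1 and 2 or KO replicates 2 and 3 was left out (0.098 to 0.151). It was 0.035 without KO replicate 1, and 0.0098 without WT replicate 3, where the fold change was -1.33. Rsad2, which encodes viperin, lies 12.8 kb from Cmpk2 on chromosome 12 and was at 10.9, 4.48 and 22.6 CPM in the WT mice and at 4.25, 6.17 and 10.3 CPM in the KO mice. The neighbours differed in the order of the libraries, and Rsad2 was the sole member with its highest value in WT replicate 3. Its fold change of -0.65 (SE 0.55) became -0.11 without that library.

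The 2'-5'-oligoadenylate synthetases, which activate an RNA-degrading enzyme, and the related Oasl genes did not share a direction. Oas1a had the higher fitted level in KO (0.41, SE 0.41), with 7.60 CPM in KO replicate 3 against 2.17 to 3.70 CPM in the other 5 libraries. The fold changes of Oas2, Oas3, Oasl1 and Oasl2 were -0.39, -0.16, -0.30 and -0.03, and their highest value lay in WT replicate 1 or 2. The Ifit genes, which encode proteins that bind foreign RNA ends, differed likewise. Ifit1, singled out after its values were seen, was at 6.54, 4.07 and 1.81 CPM in the WT mice and at 3.03, 8.41 and 7.34 CPM in the KO mice, and its fold change of 0.58 was the highest of all members (SE 0.50, interval -0.59 to 1.75). Without WT replicate 3, its lowest library, it was 0.15, below that of Oas1a (0.21). Ifit2 and Ifit3, in the same cluster on chromosome 19, had fold changes of -0.23 and -0.36. Ifit3 had whole read counts in 0 of the 6 libraries and Oas1a in 1. Fractions occur where reads were divided among similar genes, so the levels of these 2 genes against their relatives are uncertain. Ifitm3, which blocks virus entry at endosomes, was at 90.2 CPM in WT replicate 3 and at 142 to 213 CPM in the other 5 libraries (fold change 0.09). Bst2, which tethers budding virus to the cell, was at 2.14 to 6.51 CPM (0.09), and Samd9l, an inhibitor of translation, at 22.8 to 38.7 CPM (-0.16). In all, 9 of the 13 effectors had the lower fitted level in KO and 4 the higher, and none passed adjustment. Without WT replicate 3 the fold changes of Oas2, Oas3, Oasl1 and Oasl2 were -0.93, -0.72, -0.72 and -0.51, those of Ifit2 and Ifit3 were -0.35 and -0.71, and those of Ifitm3, Bst2 and Samd9l were -0.32, -0.34 and -0.34.

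Among the interferon-inducible GTPases, which coat and rupture vacuoles that hold microbes, 8 of 10 had the lower fitted level in KO. Gbp2, a guanylate-binding protein gene, was at 19.4, 22.0 and 10.7 CPM in the WT mice and at 14.0, 7.01 and 9.40 CPM in the KO mice. KO replicate 1 lay above WT replicate 3, and the log2 fold change of -0.74 (SE 0.34, interval -1.52 to 0.04) had an unadjusted p of 0.060 by limma. Gbp4 was at 7.49, 9.56 and 2.97 CPM in the WT mice and at 4.68, 4.48 and 3.53 CPM in the KO mice. Its WT replicate 3 was below all KO values, and its fold change of -0.47 (SE 0.41) became -0.93 without that library. The other guanylate-binding protein genes had fold changes of -0.09 (Gbp3), 0.15 (Gbp5), -0.38 (Gbp6) and -0.12 (Gbp7). The immunity-related GTPases had fold changes of -0.06 (Igtp), 0.03 (Irgm1), -0.34 (Irgm2) and -0.10 (Iigp1). All 10 had the lower fitted level in KO without WT replicate 3, from -0.10 for Igtp to -1.04 for Gbp2. WT replicate 2 was the highest library in 9 of the 10 GTPases, with 29.7 CPM of Irgm2 against 10.9 to 18.1 CPM in the other libraries. The exception was Gbp5, highest in KO replicate 1. Igtp and Irgm2, whose printed promoter stretches are nearly the same, were both highest in WT replicate 2, but their lowest library was WT replicate 1 for Igtp and KO replicate 1 for Irgm2. Igtp, Irgm2, Gbp4 and Gbp6 had fractional read counts in some library, which occurs where reads were divided among similar genes, so the split between these family members is uncertain.

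The ISG15 and ubiquitin system gave no common direction. Isg15, the ubiquitin-like protein that is joined to other proteins after interferon, was at 3.87, 2.03 and 1.48 CPM in the WT mice and at 0.910, 1.96 and 6.76 CPM in the KO mice. Both the lowest and the highest library of Isg15 were KO libraries, 7.42 times apart, on 6 and 23 reads. Its fold change of 0.07 had an SE of 0.62 and an interval of -1.38 to 1.51, the widest among the 43 members. Herc6, the ligase that joins ISG15 to its targets in mice, was at 6.78, 5.29 and 3.79 CPM in the WT mice and at 3.34, 3.64 and 4.70 CPM in the KO mice, a fold change of -0.38 (SE 0.30). Trim25, a ligase that activates RIG-I, was at 85.4, 90.3 and 68.4 CPM in the WT mice and at 84.8, 81.5 and 121.9 CPM in the KO mice, a fold change of 0.22 (SE 0.18). KO replicate 3 was the highest library for Trim25, Isg15 and Dtx3l. Usp18, the protease that removes ISG15 and restrains the receptor, was at 5.09 CPM in WT replicate 2 and at 2.14 to 2.80 CPM elsewhere (-0.22). Parp14, Dtx3l and Parp9, an ADP-ribosylation group clustered on chromosome 16, had fold changes of 0.06, 0.13 and 0.05. In the fit without WT replicate 3 the fold changes were -0.18 (Isg15), -0.58 (Herc6), 0.10 (Trim25), -0.42 (Usp18), -0.16 (Parp14), 0.11 (Dtx3l) and -0.07 (Parp9). Dtx3l and Parp9 overlap by 558 bases and can share reads, since no source used here states that strand was used in counting.

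The remaining members have less defined roles. Lgals3bp, a secreted glycoprotein, was at 33.2, 49.0 and 24.1 CPM in the WT mice and at 19.7, 42.0 and 32.6 CPM in the KO mice (fold change -0.17, SE 0.33). Ifi35 was at 12.1, 15.3 and 9.23 CPM in the WT mice and at 13.2, 16.0 and 10.3 CPM in the KO mice (0.11, SE 0.25). In both genes the spread within each group was larger than the difference between the groups. Xaf1, a promoter of cell death, and Rtp4, a chaperone of receptors, had fold changes of 0.02 and -0.07. The fold changes of Lgals3bp, Ifi35, Xaf1 and Rtp4 without WT replicate 3 were -0.42, -0.07, -0.21 and -0.44. Rtp4 lies 452 kb from Adipoq, the closest member to the targeted gene, and ran from 3.13 to 9.92 CPM in WT and from 3.64 to 7.64 CPM in KO. Ifi44 was the member not tested, with 0.726, 1.22 and 0.330 CPM in the WT mice and 0.152, 0.841 and 0.588 CPM in the KO mice, on 1 to 6 reads.

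The members varied widely among libraries of the same genotype, and many of them in the same order. WT replicate 3 was the lowest of the 6 libraries for 30 of the 43 members (69.8%), where it was the lowest for 18.2% of all genes. It was below the mean of the gene over all libraries for 42 of 43, with Rsad2 as the exception. KO replicate 1 was the lowest for 8 members (18.6%), close to its share of 20.0% over all genes. WT replicate 2 was the highest library for 22 members (51.2%), against 20.0% of all genes. WT replicate 1 was the highest for 9 (20.9%, against 18.0%) and KO replicate 3 for 8 (18.6%, against 13.6%). The median level of the 43 members, as log2 relative to each gene's mean, was 0.20 in WT replicate 1, 0.38 in WT replicate 2 and -0.48 in WT replicate 3, whereas KO replicates 1 to 3 had -0.17, 0.00 and 0.08. Thus the highest and the lowest library were both WT, and the KO libraries lay between them.

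**Figure D3:**
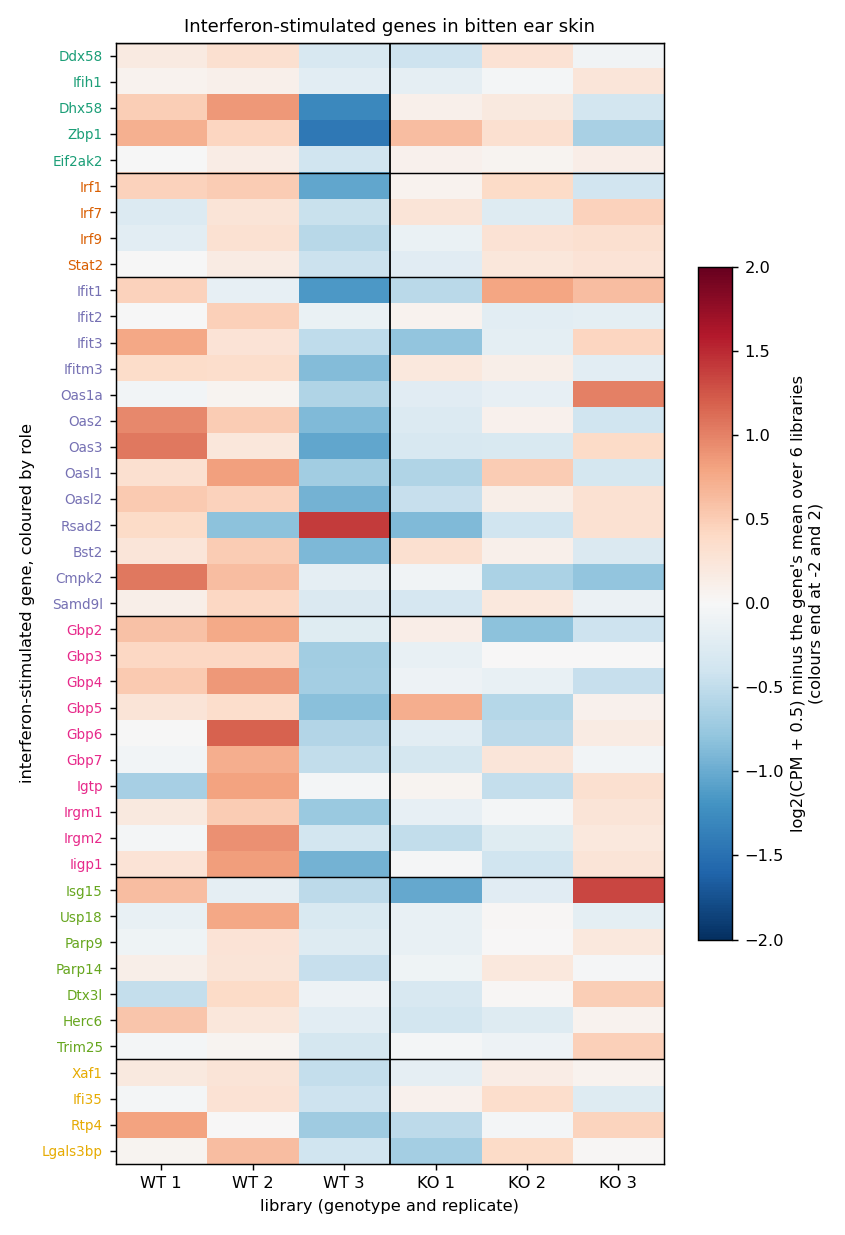
Level of each of the 43 interferon-stimulated genes (rows, grouped and coloured by role) in each library (columns), as log2(CPM + 0.5) minus the mean of the gene over the 6 libraries. The WT 3 column is blue in 42 of 43 rows, with Rsad2 in red, and the WT 2 column is red in 40 rows.

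By role, the counts below are a description, and differences between roles were not tested. WT replicate 3 was the lowest library for 4 of 5 sensors, 4 of 4 transcription factors, 8 of 13 effectors, 7 of 10 GTPases, 4 of 7 members of the ISG15 and ubiquitin group and 3 of 4 of the remaining members. The highest library was WT replicate 2 for 9 of 10 GTPases, KO replicate 3 for 3 of 4 transcription factors, and WT replicate 1 for 6 of 13 effectors. Ifih1 and Parp9 spanned the least, with 1.38 and 1.47 times between their highest and lowest library, and Isg15, Zbp1 and Dhx58 the most, with 7.42, 6.12 and 5.62 times. Members with and without an ISRE core in the promoter window had close values. WT replicate 3 was the lowest library for 12 of 19 members with a core (63.2%) and for 8 of 14 tested members with a window and no core (57.1%), and the median log2 fold changes were 0.02 and -0.00.

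**Figure D4:**
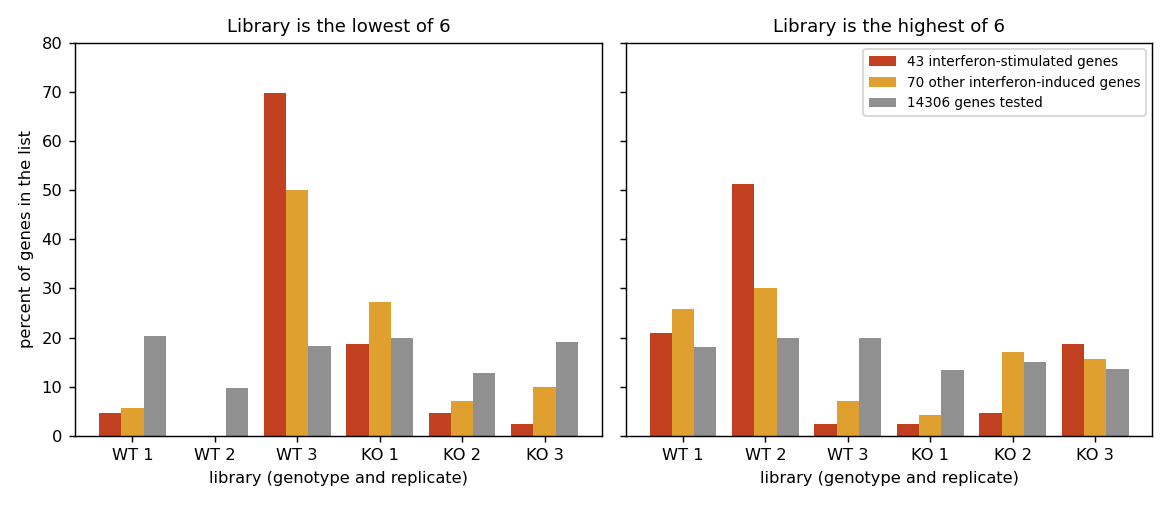
Percent of genes (vertical axis) for which each library is the lowest (left panel) or the highest (right panel) of the 6, for the interferon-stimulated genes, the other interferon-induced genes and all genes tested. WT replicate 3 is the lowest library for 69.8% of the 43 members, 50% of the 70 other interferon-induced genes and 18.2% of all genes.

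The direction of the comparison of genotypes depended on which WT library was in the fit. Without WT replicate 3, 35 of the 43 members had the lower fitted level in KO, the median log2 fold change was -0.34 (all genes -0.04), and 4 members were lower at an unadjusted p below 0.05 (Oas2, Gbp2, Gbp4 and Cmpk2; 9.30% of the 43, against 2.77% of all genes). None was higher at that p, against 2.20% of all genes. None of the 43 passed adjustment, and the smallest adjusted p of a member by limma was 0.556. The KO values of 12 members then lay all below those of the 2 remaining WT libraries (27.9%, against 11.4% of all genes), among them Irf1, Ifitm3, Dhx58 and Iigp1. Without WT replicate 2, in contrast, 32 members had the higher fitted level in KO, with a median of 0.19 (all genes -0.02). At an unadjusted p below 0.05 by limma, Irf9 was then higher (0.55, unadjusted p of 0.042), where 1.13% of all genes were, and Rsad2 lower (-1.21, unadjusted p of 0.033), where 1.03% were, and neither passed adjustment. The KO values of Irf7, Irf9 and Eif2ak2 lay all above the remaining WT values (7.26% of all genes), and those of Rsad2 all below (7.72%). Leaving out other single libraries gave medians from -0.12 to 0.09. WT replicate 3 was the lowest library for 30 of the 43 members. Leaving it out raised the WT mean of those genes, so the counts without it depend on that order. The mean log2 level of hair follicle markers was -0.10 and 0.28 in WT replicates 1 and 2, and 4.09 to 6.97 in the KO libraries. Genotype and hair follicle level thus cannot be told apart in the fit without WT replicate 3.

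Markers of several cell types also moved with the libraries. In bulk skin, fewer cells of a type and less RNA per cell cannot be told apart. Summed macrophage markers (15 of 15) were at 919, 1268 and 639 CPM in WT replicates 1 to 3 and at 607, 1198 and 757 CPM in KO replicates 1 to 3, and none was at 0 in any library. Summed neutrophil markers (10 of 14 in the table, with no row for Ly6g, Ngp, Camp and Ltf) were at 647, 247 and 72.0 CPM in the WT mice and at 242, 141 and 134 CPM in the KO mice, with Mmp8 at 0 in KO replicate 3. WT replicate 3 was thus the lowest library for neutrophil markers and second lowest for macrophage markers. Summed T and NK cell markers (10 of 18, none at 0) were at 144 CPM in WT replicate 3 and at 183 to 213 CPM in the other libraries. Trac, Trbc1, Trbc2, Trdc, Cd8a, Cd8b1, Gzmb and Ncr1 had no row, and Thy1 is also among the fibroblast markers. By the mean log2 level of these 10 markers, WT replicate 3 (2.35) lay above KO replicates 1 and 2 (2.24 and 2.23). Summed plasmacytoid dendritic cell markers (7 of 8, of which Bst2 is also a member) were at 146 to 202 CPM, with 198 CPM in WT replicate 3. Bst2 alone was lowest in WT replicate 3, at 2.14 CPM. The mean log2 level of the 5 tested markers was 3.81 there and 3.80 to 4.04 in the other libraries. Summed blood markers (7 of 7) were highest in WT replicate 3, at 7532 CPM against 94.9 to 1675 CPM elsewhere. With a hair follicle covariate in the fit the median fold change of the members was 0.20 (all genes -0.04). Of the 43 members, 29 then had the higher fitted level in KO, while 56.6% of all genes had the lower. The mean log2 level of the hair follicle markers was highest in WT replicate 3 (8.50, against -0.10 to 6.97 in the other libraries). Other lists leaned by genotype. In KO, 12 of 12 adipocyte markers (Adipoq included) and 12 of 12 skeletal muscle markers had the lower fitted level (medians -0.83 and -0.46). Of hair follicle, keratinocyte and cartilage markers, 18 of 20, 10 of 11 and 8 of 8 had the higher (medians 2.57, 0.12 and 0.45). Summed keratinocyte markers were lowest in WT replicate 3 (36046 CPM), but their mean log2 level was lowest in WT replicate 1 (10.80). The part of these cell types in the order of the libraries or in the fold changes was not tested.

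Upstream of the members, interferons themselves were hardly seen. Of 21 interferon genes listed, Ifnk, the interferon made by keratinocytes, had a row in the table, at 0.726, 0.203 and 0.165 CPM in the WT mice and 0.910, 1.12 and 0.294 CPM in the KO mice. These are 1 to 6 reads per library, and the mean was below the minimum for a test. The other ligands listed, interferon gamma and interferon beta included, had no row in the table, so their levels could not be read.

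The receptor chains and kinases were all in the table (9 of 9), and 1 had an unadjusted p below 0.05 and was higher in KO, as 1.06% of all genes were. Ifngr2, the signalling chain of the interferon gamma receptor, was at 38.7, 37.8 and 35.6 CPM in the WT mice and at 44.1, 51.0 and 50.5 CPM in the KO mice. The KO values all lay above the WT values, which held for 2.95% of all genes. The log2 fold change was 0.37 (SE 0.12, interval 0.09 to 0.65), with an unadjusted p of 0.015 and an adjusted p of 0.998 by limma, so it failed the correction. Without WT replicate 3 or KO replicate 2 the unadjusted p was 0.050 and 0.053. Its partner Ifngr1, the chain that binds interferon gamma, was at 127, 142 and 94.5 CPM in the WT mice and at 99.5, 107 and 86.7 CPM in the KO mice, a fold change of -0.29 (SE 0.17) in the other direction. The KO values lay all below the WT values, as for 4.89% of all genes, in 2 of the 9. These were Ifnlr1, the receptor chain specific to type III interferon, at 26.4, 26.4 and 26.5 CPM in the WT mice and 23.1, 20.7 and 22.9 CPM in the KO mice (-0.25, SE 0.13), and the kinase gene Jak2, at 62.5 to 66.8 CPM in WT and 49.9 to 61.9 CPM in KO (-0.22, SE 0.12). Neither passed the test.

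**Figure D5:**
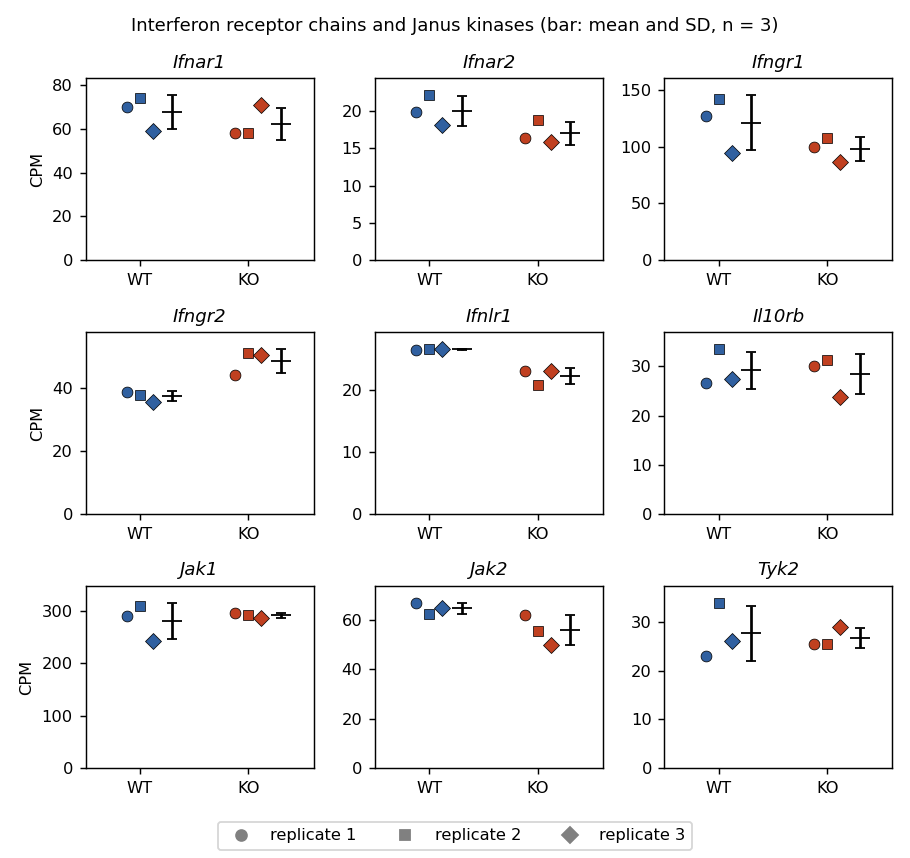
CPM (vertical axes, from 0) of 6 interferon receptor chains and 3 Janus kinases in each WT and KO library, with the mean and SD of each group (n = 3) as a bar. Ifngr2 lies above the WT range in every KO library, Ifnlr1 and Jak2 lie below it, and the groups overlap in the others.

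The remaining genes of the pathway showed no call. Tests were made for 15 of 17 adaptors and factors that induce interferon, 6 of 6 negative regulators and 70 of 83 other interferon-induced genes. Of these, 0 had an unadjusted p below 0.05, where 1.82% of all genes were lower and 1.06% higher. The KO values lay all below WT in Pias1 and Trim12c, as for 4.89% of all genes. They lay all above WT in Pias3, as for 2.95%. The median log2 fold change was 0.01, -0.08 and -0.03 for the 3 lists. WT replicate 3 was the lowest library for 35 of the 70 other interferon-induced genes (50%), for 6 of the 15 adaptors and factors, and for 2 of the 9 receptor chains and kinases. Without WT replicate 3, 11 of 100 pathway genes were lower in KO at an unadjusted p below 0.05 and 0 were higher, where 2.77% of all genes were lower and 2.20% higher. These were Ifngr1, the RNA sensor gene Tlr8, the signalling inhibitor gene Socs3, Stat3, and the induced genes Tgtp1, Gvin1, Ifi204, Trim30a, Trim30d, Ly6a and Ifitm1. They are named because they passed that threshold and were chosen after their values were seen. Leaving out the library that was lowest for 35 of the 70 raised the WT mean of those genes. The count of 11 therefore depends on that order, and genotype cannot be told apart from hair follicle level in that fit.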

How the data were processed

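The authors trimmed the reads, mapped them to mm10 with STAR (2.7.3a, per the submitters' processing notes) and quantified genes in Partek Flow, where a read can be shared between genes. Deposited values are CPM, the count of a gene over the total of its library times 1000000, plus an offset of 0.0001 from the authors. Depth was recovered from the step of 1 read in the low values, of which 91.3% to 92.5% lay within 0.1 of a whole read, so no count test was the main test. Intervals of fold changes come from the limma fit and reflect the spread between mice as well as counting error. WT and KO (3 mice each) were compared on log2(CPM + 0.5) with limma 3.58.1 in R 4.3.3 (empirical Bayes with a trend, two-sided), for all genes whose mean reached 1 CPM. The step was run on simulated counts with the same dispersion for every gene and no shared shifts between libraries. These settings are simpler than the data, so the run does not give the error rate here. The members and gene lists were chosen with earlier results of these data known. Values in every library are given for members with an unadjusted p below 0.05, for the 2 with the smallest p and the 1 with the largest fold change in each role, and for Isg15, Irf1, Irf7, Irf9 and Stat2. Of the pathway these are Ifnk and genes with an unadjusted p below 0.05, and 1 gene of the rule is not reported here. Others were chosen after their values were seen. Promoters are from RefSeq (GRCm38.p6), and the files' coordinates are GRCm38.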

Additional observations from a re-analysis of the deposited data

How the results depend on the processing

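No member passed an adjusted p of 0.05 in limma under any of 17 alternatives. Of 751 gene values recomputed, 683 kept both sign and call, 66 reversed (54 of them with 1 library left out) and 2 lost the call, both of Adipoq (adjusted p 0.488 with voom on recovered reads and 0.068 without WT replicate 2, by limma). Of the 43 members 14 kept their direction throughout. The order of the libraries was recomputed under alternatives chosen after seeing the data, and WT replicate 3 stayed the lowest for 25 to 32 members, except that 19 of 29 members remained above a mean of 5 CPM. The number lower at an unadjusted p below 0.05 was 0 with a minimum of 5 CPM (Cmpk2 is then not tested), quantile normalization, voom on recovered reads or the hair follicle covariate, and 0 to 4 with 1 library left out. The number higher was 0 to 1, members without overlap 0 to 12, and pathway genes at that p 0 to 11 with 1 library left out. Pathway genes at that p were 2 without a filter or without a trend and 5 with the covariate. Of all genes, 1.94% were lower and 1.05% higher without a filter, and 2.26% and 1.31% without a trend. With the covariate 3.96% were lower and 2.12% higher. The labels do not state that replicate numbers pair the mice. Correlations of deviations between same-numbered libraries (0.38, -0.31 and -0.22) cannot decide this with 3 mice per group. The fit with a replicate block gave 3 pathway genes at that p, where 2.89% of all genes were lower and 1.24% higher. It changed no call of a member. Reversed fold changes under the hair follicle covariate were 0.0096 (Oas2), 0.33 (Oas3), 0.35 (Oasl2), 0.20 (Gbp3), 0.060 (Gbp7), 0.013 (Igtp), 0.34 (Iigp1), 0.43 (Dhx58) and 0.25 (Rtp4). Quantile normalization gave 0.035 for Oasl2, and voom gave -0.16 for Isg15 and 0.14 for Dhx58. With 1 library left out, fold changes that reversed ranged from -0.59 to 0.59 (Isg15), -0.32 to 0.30 (Ifitm3), -0.46 to 0.32 (Irf1), -0.72 to 0.33 (Oas3), -0.72 to 0.032 (Oasl1), -0.51 to 0.23 (Oasl2), -0.42 to 0.12 (Usp18), -0.46 to 0.10 (Gbp3), -0.23 to 0.47 (Gbp5), -0.77 to 0.11 (Gbp6), -0.39 to 0.21 (Gbp7), -0.41 to 0.33 (Igtp), -0.34 to 0.29 (Irgm1), -0.61 to 0.026 (Irgm2), -0.60 to 0.29 (Iigp1), -0.32 to 0.045 (Ddx58), -0.10 to 0.12 (Ifih1), -0.70 to 0.37 (Dhx58), -0.48 to 0.59 (Zbp1), -0.21 to 0.15 (Xaf1), -0.34 to 0.37 (Bst2), -0.072 to 0.20 (Parp9), -0.16 to 0.20 (Parp14), -0.081 to 0.36 (Dtx3l), -0.067 to 0.28 (Ifi35), -0.34 to 0.0010 (Samd9l), -0.44 to 0.32 (Rtp4) and -0.42 to 0.12 (Lgals3bp). The cause was not tested. Depth limits the low members, since 3 reads correspond to 0.455 to 0.881 CPM.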
